A study of Rattus norvegicus with 9 samples.

Results

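The histone deacetylases examined here are the zinc-dependent enzymes that remove acetyl groups from lysines of histones and other proteins. They were taken as every probe set of the rat array annotated to a single gene among 10 symbols: Hdac1, Hdac2, Hdac3, Hdac4, Hdac5, Hdac6, Hdac7, Hdac8, Hdac9 and Hdac11. The table held 11 such probe sets for 9 of these genes, out of 31042 probe sets in all (14217 genes with a probe set of their own), and none for Hdac9. Of the 11, 10 passed the filter on low signals that left 18625 probe sets for testing. The probe set that did not pass is the dimmer of the pair for Hdac5.

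RNA from rat hippocampus, which the labels describe as hippocampal neurons, was hybridised to 9 arrays. There were 3 arrays after 1 h of ketone bodies, 3 after 6 h of ketone bodies and 3 controls that received artificial cerebrospinal fluid only. The labels give neither the dose nor the identity of the ketone bodies, no exposure time for the control, and no strain, age or sex. They do not say that replicates came from separate animals or cultures, so the p-values reflect the spread among these 9 arrays, which may be technical.

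Acetylated histone tails loosen chromatin and recruit bromodomain proteins, and deacetylases reverse that mark. Class I enzymes (Hdac1, Hdac2, Hdac3 and Hdac8) are largely nuclear, and the first 3 of them work inside corepressor complexes. Class IIa enzymes (Hdac4, Hdac5, Hdac7 and Hdac9) shuttle between cytoplasm and nucleus, bind MEF2 transcription factors and have little catalytic activity of their own. Hdac6, a class IIb enzyme, is mainly a cytoplasmic tubulin deacetylase, and Hdac11 is the class IV enzyme. The ketone body beta-hydroxybutyrate inhibits class I deacetylases. That is an effect on enzyme activity, whereas the arrays measured transcript levels. In hippocampus Hdac2 is known as a brake on synaptic plasticity and memory in mice.

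In mouse cells the deacetylase inhibitor trichostatin A raises Hdac1 transcription through GC boxes and a CCAAT box in its promoter. The 250 bases before the start of rat Hdac1 are therefore shown with those of its closest paralog Hdac2, from RefSeq on build GRCr8. Capitals mark the letters GGGCGG (the GC box) or CCAAT on either strand. The Hdac1 stretch lies on the minus strand at chr5:147165388-147165637 and the Hdac2 stretch on the plus strand at chr20:42102877-42103126.
Hdac1: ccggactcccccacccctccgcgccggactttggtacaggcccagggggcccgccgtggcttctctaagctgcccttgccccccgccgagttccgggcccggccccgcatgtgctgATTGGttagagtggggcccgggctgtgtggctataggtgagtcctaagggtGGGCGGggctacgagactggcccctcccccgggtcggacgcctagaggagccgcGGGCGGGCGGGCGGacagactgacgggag
Hdac2: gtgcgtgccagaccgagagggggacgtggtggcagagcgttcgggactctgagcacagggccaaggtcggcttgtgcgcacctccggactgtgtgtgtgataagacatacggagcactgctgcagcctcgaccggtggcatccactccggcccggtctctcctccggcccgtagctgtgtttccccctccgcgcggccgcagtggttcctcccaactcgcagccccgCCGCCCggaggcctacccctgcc
The Hdac1 stretch held 4 GC boxes, 3 of them overlapping in a single run, and 1 CCAAT box, which lies 134 bases before the start. The Hdac2 stretch held 1 GC box and 0 CCAAT boxes. A promoter was given for 8 of the 9 measured genes, Hdac11 being the exception. Of these, 6 held a GC box and 4 a CCAAT box, where 30.5% and 34.0% of 33469 rat promoters of that length did. Matches of letters say nothing about whether a factor binds there.

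The labelled cell type was checked against marker genes. All 9 markers of neurons on the list lay above the filter level, and so did 7 of 7 markers of excitatory neurons on the array and 6 of 6 of inhibitory neurons. Glial markers did too: 7 of 7 for astrocytes, 7 of 7 for oligodendrocytes and 8 of 8 for microglia. So did 6 of 6 endothelial markers and 2 of 4 choroid plexus markers on the array. The summed signal of the astrocyte markers was 20358 to 22795 at 1 h, 20372 to 21381 at 6 h and 19534 to 20540 in control. That of the excitatory neuron markers was 8806 to 10525 at 1 h, 8993 to 9788 at 6 h and 9784 to 10846 in control. That of the inhibitory neuron markers was 5114 to 5526 at 1 h and 4954 to 5124 at 6 h, both above the 4248 to 4724 in control, and that of the oligodendrocyte markers was 23192 to 25611 at 1 h and 22617 to 24713 at 6 h, against 22482 to 22750 in control. Single probe sets did not all follow these sums. The sums are of deposited signals from the brightest probe set of each gene, so bright genes weigh most. The log2 changes that follow are quantile-normalized and cover every tested probe set. Of the 7 tested probe sets of the inhibitory markers, 3 had negative log2 changes at 1 h and 2 at 6 h. The lowest were -1.30 and -0.72. At an unadjusted p under 0.05 by limma, 3 of 7 were higher and 1 lower at 1 h, beside 6.7% and 4.64% of all probe sets. All 11 tested probe sets of the excitatory markers, which stand for 7 genes, had negative log2 changes at both times. Over all probe sets 44.7% were negative at 1 h, and 8607 of 18625 at 6 h. The median of the 11 was -0.39 at 1 h and -0.30 at 6 h. By limma 0 of 11 passed, with a lowest adjusted p of 0.0516 at 1 h. At an unadjusted p under 0.05, 5 of 11 were lower at 1 h, beside 4.64% of all probe sets, and 4 of 11 at 6 h, beside 1.46%. Of the 13 tested probe sets of the oligodendrocyte markers, 10 had negative log2 changes at 1 h and 8 at 6 h, opposite in sign to the sum, and the median was -0.11 at 1 h. The astrocyte markers also had 13 tested probe sets, of which 8 had negative log2 changes at 1 h and 7 at 6 h. Their medians were -0.077 and -0.050. At an unadjusted p under 0.05 by limma, 3 of these 13 were lower at 1 h, beside 4.64% of all probe sets, and 0 were higher, beside 6.7%. Of the 9 tested microglia probe sets, 3 were higher and 2 lower at 1 h at the same level, beside the same shares. At 6 h 1 was higher, beside 2.8% of all probe sets, and 0 lower, beside 1.46%. The RNA thus held glial and endothelial as well as neuronal transcripts. In such bulk RNA, fewer cells of a type cannot be told apart from less RNA per cell. The part of these marker differences in the results below was not tested.

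**Figure D1:**
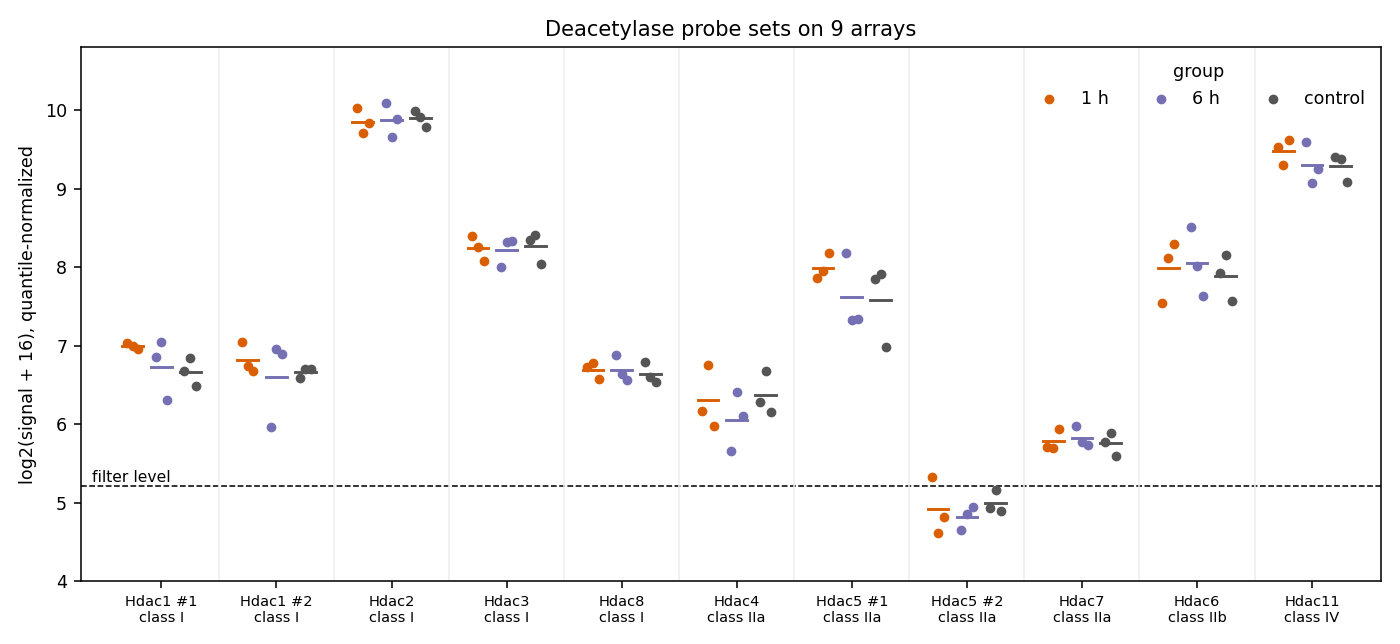
Quantile-normalized log2(signal + 16) of the 11 deacetylase probe sets (x axis, with their class) on each array: 3 points per group at 1 h, 6 h and control, with a bar at the group mean. The dashed line is the filter level of log2 5.21. The points of Hdac1 probe set 1 at 1 h lie above all of its control points, and every other probe set overlaps between the groups. Heights of different probe sets are not comparable.

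In control arrays every measured deacetylase gene had at least 1 probe set above the filter level of log2 5.21, a signal of about 21.0. Signals below are the deposited linear intensities, and they can be set against each other only for the same probe set, since probe sets differ in how well they bind their target. Class I probe sets had mean control signals of 89.8 ± 12.5 and 88.8 ± 5.55 (Hdac1), 921 ± 75.7 (Hdac2), 295 ± 40.1 (Hdac3) and 87.6 ± 8.40 (Hdac8), each as mean ± SD over 3 arrays. Class IIa probe sets had 71.4 ± 16.6 (Hdac4), 186 ± 62.0 and 17.0 ± 4.15 (Hdac5) and 40.4 ± 5.47 (Hdac7). Hdac6 had 226 ± 47.5 and the class IV gene Hdac11 had 607 ± 74.3.

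After 1 h or 6 h of ketone bodies no deacetylase transcript passed the test. By limma's moderated test, adjusted by Benjamini-Hochberg over all 18625 probe sets, 0 of 10 passed an adjusted p of 0.05 at 1 h against control, 0 at 6 h against control and 0 at 6 h against 1 h. Over all probe sets the share passing was 0.0322% at 1 h, 0.0268% at 6 h and 0% between the times. At an unadjusted p under 0.05 the deacetylases also gave 0 of 10 in each comparison, beside 11.3%, 4.26% and 2.73% of all probe sets. The moderated F test for any difference among the groups called 0 of 10, beside 0.0215% of all, and its lowest adjusted p among the members was 0.839. The median log2 change of the 10 was 0.073 at 1 h, beside 0.029 over all probe sets, and 0.025 at 6 h, beside 0.015. These p-values do not show that the transcripts were equal in the groups, so the intervals of the differences are given below for each class.

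**Figure D2:**
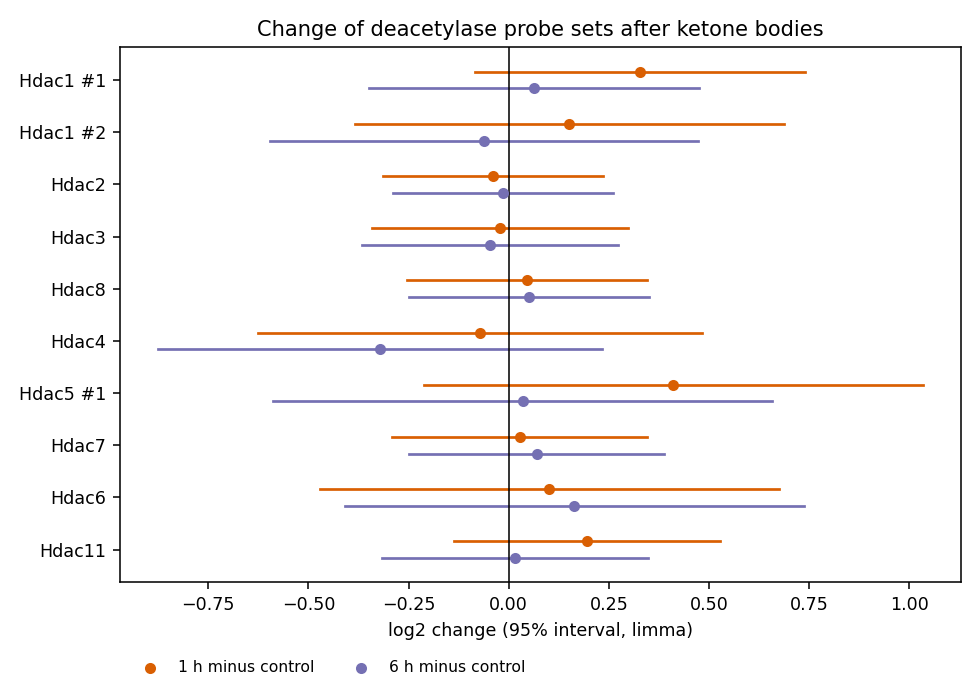
Log2 change of each tested deacetylase probe set (rows) at 1 h minus control and 6 h minus control, as points with 95% intervals from limma (3 arrays per group, 9 arrays in the fit). All 20 intervals cross 0, and they are narrowest for Hdac2, Hdac8, Hdac7 and Hdac3.

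Among class I genes, Hdac1 had the smallest p at 1 h. It encodes a catalytic subunit of the Sin3, NuRD and CoREST corepressor complexes. Its probe set 1 had signals of 114, 109 and 104 at 1 h and 96.3, 114 and 66.6 at 6 h, against 88.3, 103 and 78.0 in control. The 3 arrays at 1 h lay above all 3 controls, the lowest at 104 against the highest control at 103, a pattern of no overlap upward that 13% of all tested probe sets showed at 1 h, whereas the 6 h arrays spanned the control range and went past it on both sides. The log2 change was 0.33 ± 0.18 at 1 h (SE, n = 3 arrays per group; adjusted p = 0.508 by limma; 95% interval -0.08 to 0.74) and 0.064 ± 0.185 at 6 h (adjusted p = 0.991; interval -0.35 to 0.48).

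The other Hdac1 probe set did not follow it array by array. It had 114, 88.4 and 81.8 at 1 h and 41.4, 107 and 106 at 6 h, against 82.4, 91.6 and 92.4 in control. At 6 h its lowest array was replicate 1, while that of probe set 1 was replicate 3, so the pair disagree on which 6 h array has least Hdac1. Its log2 change was 0.15 ± 0.24 at 1 h (adjusted p = 0.819 by limma; interval -0.38 to 0.69) and -0.062 ± 0.240 at 6 h (adjusted p = 0.992; interval -0.60 to 0.47). Without 1 h replicate 1 the 1 h value was 0.039, and leaving out any 1 array gave 0.039 to 0.22. By limma, Hdac1 at 6 h against 1 h had -0.26 ± 0.18 in probe set 1 and -0.21 ± 0.24 in probe set 2, and the adjusted p was 0.997 for both. Without 6 h replicate 3 the value of probe set 1 was -0.048, and without 6 h replicate 1 that of probe set 2 was 0.11.

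Hdac2, which shares the same complexes with Hdac1, had signals of 1034, 835 and 906 at 1 h and 1104, 795 and 927 at 6 h, against 999.7, 914 and 849 in control. The groups overlapped throughout, and the highest and lowest of all 9 arrays were both 6 h arrays. The log2 change was -0.041 ± 0.123 at 1 h (adjusted p = 0.912 by limma) and -0.015 ± 0.123 at 6 h (adjusted p = 0.994). The 95% intervals ran from -0.32 to 0.23 at 1 h and from -0.29 to 0.26 at 6 h, the narrowest among the members. Its direction is not settled: with array median centring the same values were 0.11 and 0.10, in a scaling that moved the median of all probe sets to 0.096 and 0.071.

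Hdac3, the catalytic subunit of the NCoR and SMRT complexes, had 320.4, 289.9 and 251 at 1 h and 242, 301 and 304 at 6 h, against 311, 325 and 249.7 in control. All 3 groups covered almost the same range. The log2 change was -0.023 ± 0.144 at 1 h (adjusted p = 0.958 by limma; interval -0.34 to 0.30) and -0.048 ± 0.144 at 6 h (adjusted p = 0.991; interval -0.37 to 0.27). Hdac8, the class I enzyme that acts outside those complexes and deacetylates the cohesin subunit Smc3, had 88.7, 91.2 and 75.4 at 1 h and 98.3, 83.1 and 82.0 at 6 h, against 97.1, 84.6 and 81.2 in control. Its log2 change was 0.045 ± 0.135 at 1 h (adjusted p = 0.910 by limma; interval -0.25 to 0.34) and 0.050 ± 0.135 at 6 h (adjusted p = 0.991; interval -0.25 to 0.35). For Hdac2, Hdac3 and Hdac8 the intervals at both times stayed within 0.37 of 0 on the log2 scale, while those of Hdac1 reached 0.74.

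Among class IIa genes, Hdac4, which restrains MEF2 target genes when it is nuclear, had signals of 55.2, 89.9 and 44.4 at 1 h and 30.4, 67.7 and 56.0 at 6 h, against 64.1, 90.5 and 59.8 in control. The lowest of the 9 arrays was 6 h replicate 1, and both ketone groups overlapped the controls. Its log2 change was -0.072 ± 0.249 at 1 h (adjusted p = 0.921 by limma; interval -0.63 to 0.48) and -0.32 ± 0.25 at 6 h (adjusted p = 0.987; interval -0.87 to 0.23). Without 6 h replicate 1 the 6 h value was -0.12, and leaving out any 1 array gave -0.50 to -0.12.

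Hdac5, a class IIa enzyme that leaves the nucleus when neuronal activity triggers its phosphorylation, had in probe set 1 signals of 215, 230.0 and 269.8 at 1 h and 278, 142 and 150.0 at 6 h, against 217, 227 and 115 in control. Control replicate 3 stood well below the other two controls, and 6 h replicate 1 well above the other two 6 h arrays. The log2 change was 0.41 ± 0.28 at 1 h (adjusted p = 0.571 by limma; interval -0.21 to 1.03) and 0.034 ± 0.280 at 6 h (adjusted p = 0.994; interval -0.59 to 0.66). Without control replicate 3 the 1 h value was 0.11. Probe set 2 of Hdac5 lay under the filter level in its mean, with signals of 7.27 to 23.4 over the 9 arrays, and it was fitted only in the alternative without a filter. There it had -0.074 ± 0.195 at 1 h and -0.18 ± 0.19 at 6 h.

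Hdac7, better known from endothelium and thymocytes than from neurons, had 35.7, 34.1 and 42.6 at 1 h and 42.2, 38.5 and 39.8 at 6 h, against 39.4, 46.2 and 35.4 in control. The groups overlapped, with a log2 change of 0.027 ± 0.143 at 1 h (adjusted p = 0.952 by limma; interval -0.29 to 0.34) and 0.070 ± 0.143 at 6 h (adjusted p = 0.991; interval -0.25 to 0.39). With signals this near the pseudocount of 16, log2 changes of Hdac7 are understated.

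Hdac6 had signals of 168, 262 and 297 at 1 h and 354, 239.7 and 184 at 6 h, against 229, 272 and 177 in control. Both ketone groups spread more widely than the controls and overlapped them. The log2 change was 0.10 ± 0.26 at 1 h (adjusted p = 0.891 by limma; interval -0.47 to 0.67) and 0.16 ± 0.26 at 6 h (adjusted p = 0.988; interval -0.41 to 0.74). Without 6 h replicate 1 the 6 h value was -0.065.

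Hdac11, which in vitro removes long fatty acyl groups better than acetyl groups and is expressed in brain, had 726, 618 and 790.3 at 1 h and 774, 518 and 588 at 6 h, against 661, 638 and 522 in control. At 1 h a pair of arrays exceeded every control and the remaining array did not. The log2 change was 0.20 ± 0.15 at 1 h (adjusted p = 0.608 by limma; interval -0.14 to 0.53) and 0.015 ± 0.149 at 6 h (adjusted p = 0.995; interval -0.32 to 0.35). The 1 h value was 0.093 without control replicate 3 and 0.13 without 1 h replicate 3, and leaving out any 1 array gave 0.093 to 0.28. At 6 h against 1 h, the log2 changes of the 10 probe sets ran from -0.38 (Hdac5 probe set 1) to 0.063 (Hdac6), with a lowest adjusted p of 0.997 by limma.

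RNA quality varied beside these values. The array carries beta-actin control probe sets near both ends of the transcript. Their 3'/5' ratio on the log2 scale, higher where RNA is more degraded or labelled copies are shorter, was 1.39, 2.16 and 2.02 at 1 h and 2.58, 1.92 and 1.03 at 6 h, against 1.37, 1.27 and 1.42 in control. An exact 2-sided permutation test against control gave p = 0.2 for the 1 h arrays and p = 0.4 for the 6 h arrays. Adjusted over 4 tests, Gapdh included, both were 0.8, and 0.1 is the smallest p that 3 against 3 can give. The Gapdh ratio had a mean of 0.11 at 1 h and 0.19 at 6 h, against 0.13 in control. The same permutation test gave p = 0.8 for Gapdh at each time. Its mean was lower than in control at 1 h and higher at 6 h, while that of beta-actin was higher at both. With 3 arrays per group these tests settle neither direction. The array with the highest ratio, 6 h replicate 1, had the highest signals among the 9 for Hdac2, Hdac8, Hdac5 probe set 1 and Hdac6, and the lowest for Hdac1 probe set 2, Hdac3, Hdac4 and Hdac5 probe set 2.

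**Figure D3:**
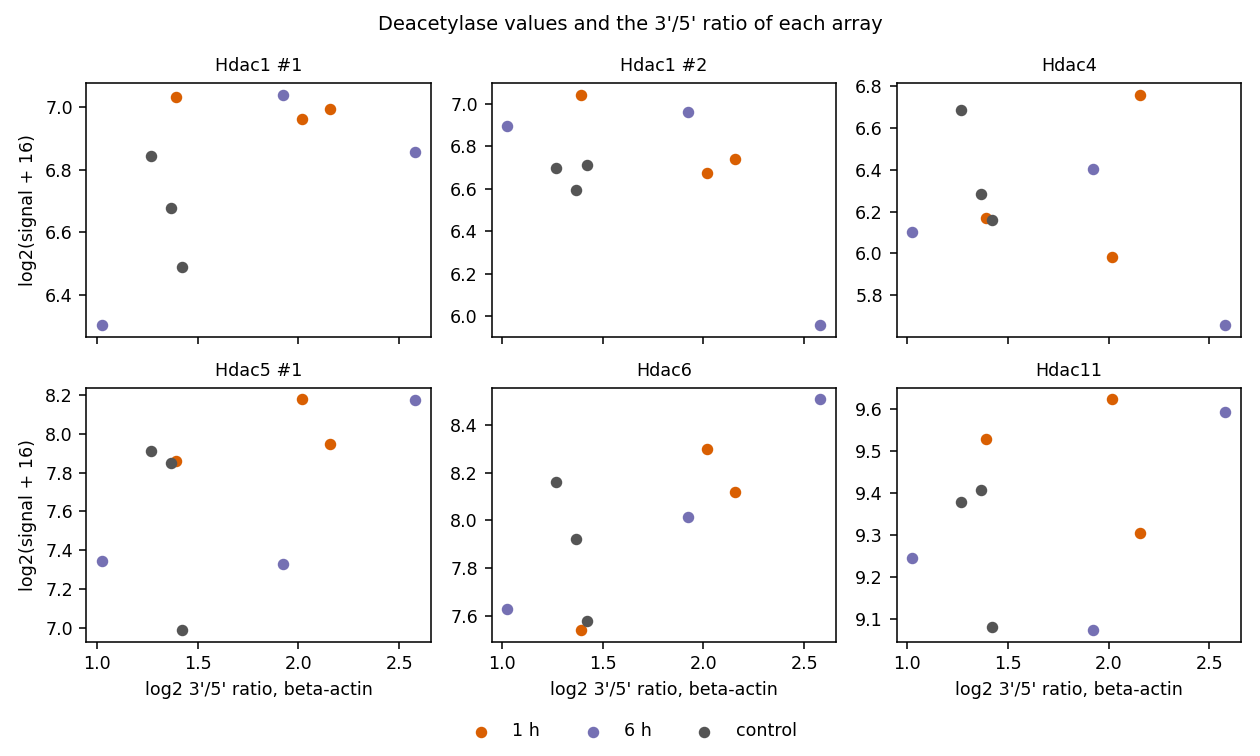
Quantile-normalized log2(signal + 16) of 6 deacetylase probe sets (y axes, each with its own range) against the log2 3'/5' ratio of beta-actin on the same array (x axis), with 1 point per array coloured by group. Hdac6 is highest and Hdac1 probe set 2 and Hdac4 are lowest on the array with the ratio of 2.58.

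A fit with the 3 groups and this ratio gave the slope of each probe set within groups, in log2 units per unit of the log2 ratio. Hdac6 had 0.60 ± 0.17 (adjusted p = 0.195 by limma) and Hdac1 probe set 2 had -0.54 ± 0.17 (adjusted p = 0.248), while Hdac1 probe set 1 had 0.27 ± 0.16 (adjusted p = 0.58). None of the 10 passed, beside 0.897% of all probe sets, and 2 of 10 had an unadjusted p under 0.05, beside 11.5%. With the ratio in the model, Hdac6 had a log2 change of -0.20 at 1 h and -0.13 at 6 h, Hdac1 had 0.19 in probe set 1 and 0.42 in probe set 2 at 1 h, and Hdac5 probe set 1 had 0.21 at 1 h and -0.16 at 6 h. None of these passed either.

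The array profile of Hdac1 probe set 1, the member with the smallest F test p, was most like those of Zfyve9 (Pearson r = 0.98), Lsm2 (0.96) and Btbd6 (0.95). That order is over the same 9 arrays among 14440 tested probe sets with a single gene.

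Other genes of the acetylation system were read from lists. By limma, over all tested probe sets, 0 of 101 probe sets in the 6 lists passed at either time. At an unadjusted p under 0.05 there were 4 higher and 7 lower at 1 h, and 1 higher and 0 lower at 6 h. Over all probe sets 6.7% were higher and 4.64% lower at 1 h, and 2.8% higher and 1.46% lower at 6 h. Sirtuins are the NAD-dependent deacetylases, which lie outside the zinc-dependent family. They had 6 tested probe sets with a median log2 change of 0.13 at 1 h and 0.011 at 6 h. At an unadjusted p under 0.05, 2 of 6 were higher at 1 h and 1 of 6 at 6 h, beside 6.7% and 2.8% of all probe sets. Sirt6, a chromatin deacetylase of telomeres and glycolytic genes, had log2 values of 7.41, 7.43 and 7.30 at 1 h and 7.14, 7.43 and 6.96 at 6 h, against 6.96, 7.02 and 6.86 in control. Its 1 h arrays all lay above the controls, as in 13% of all probe sets. The log2 change was 0.43 ± 0.14 at 1 h (adjusted p = 0.356 by limma) and 0.22 ± 0.14 at 6 h (adjusted p = 0.987). Sirt7, found in the nucleolus, had 0.34 ± 0.14 at 1 h (adjusted p = 0.418 by limma) and 0.32 ± 0.14 at 6 h (adjusted p = 0.987).

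Histone acetyltransferases add the mark that deacetylases remove. They had 15 tested probe sets with a median of -0.061 at 1 h and -0.055 at 6 h, and 4 of 15 were lower at 1 h at an unadjusted p under 0.05, beside 4.64% of all probe sets, and 0 of 15 at 6 h, beside 1.46%. Ep300, the coactivator p300, had log2 values of 7.61, 7.47 and 7.57 at 1 h and 8.29, 7.97 and 8.17 at 6 h, against 8.17, 7.76 and 8.44 in control. Every 1 h array lay below every control, as in 8.25% of all probe sets, and below every 6 h array, as in 3.57%. By limma the log2 change was -0.57 ± 0.17 at 1 h (adjusted p = 0.335), 0.019 ± 0.165 at 6 h (adjusted p = 0.994) and 0.59 ± 0.17 at 6 h against 1 h (adjusted p = 0.997). Kat6a had -0.31 ± 0.12 at 1 h (adjusted p = 0.407 by limma) and -0.27 ± 0.12 at 6 h (adjusted p = 0.987), and its other tested probe set had -0.27 ± 0.26 and -0.055 ± 0.259.

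**Figure D4:**
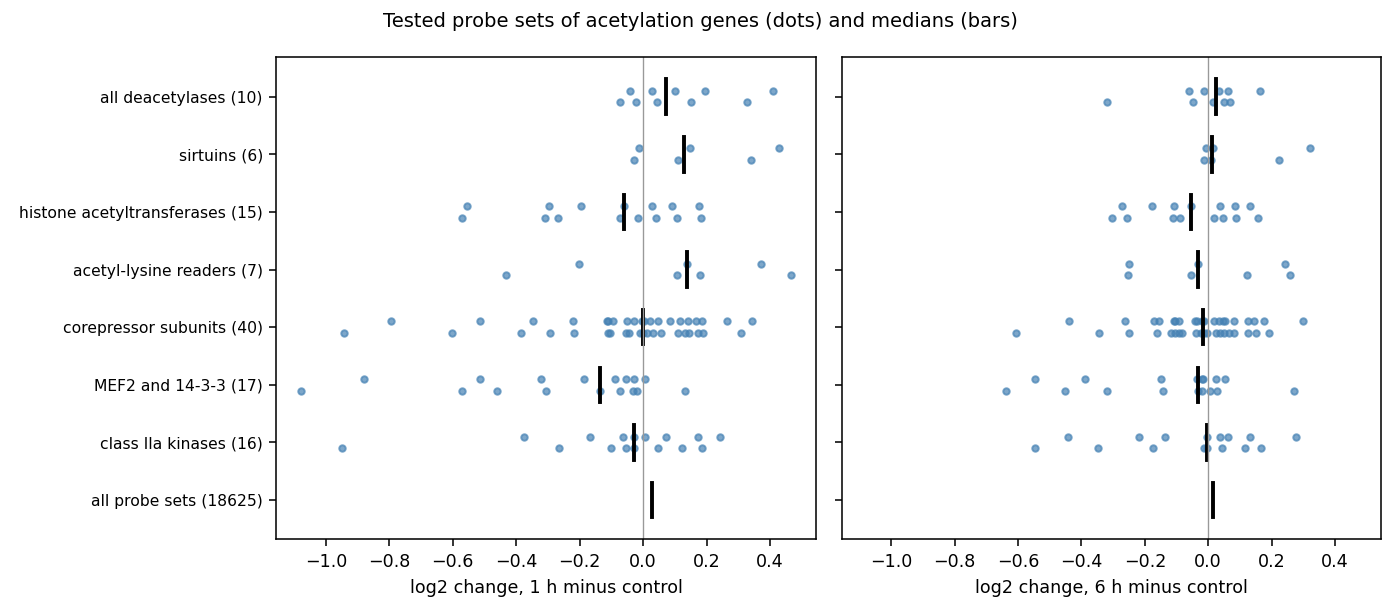
Log2 change of each tested probe set (dots) of the deacetylases and 6 related lists at 1 h minus control (left) and 6 h minus control (right), with the median as a bar and the number of probe sets in brackets. Only the median is drawn for all 18625 probe sets. The deacetylases lie between -0.07 and 0.41 at 1 h and between -0.32 and 0.16 at 6 h.

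Bromodomain readers of acetylated lysine had 7 tested probe sets with a median of 0.14 at 1 h and -0.033 at 6 h. Brd9 had 0.37 ± 0.12 at 1 h (adjusted p = 0.374 by limma) and Brd2 had 0.47 ± 0.22 (adjusted p = 0.456). Corepressor subunits, the partners of class I enzymes, had 40 tested probe sets with a median of -0.0016 at 1 h and -0.017 at 6 h. Ncor1, the scaffold that holds Hdac3, had -0.22 ± 0.11 at 1 h in its brightest probe set (adjusted p = 0.461 by limma), and -0.38 ± 0.19 and -0.94 ± 0.45 in the others. Hmg20b, a CoREST subunit, had 0.34 ± 0.17 (adjusted p = 0.475 by limma).

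Partners of class IIa enzymes were the MEF2 factors and the Ywha adaptor proteins, which hold the phosphorylated enzymes in the cytoplasm. They had 17 tested probe sets with a median of -0.13 at 1 h and -0.033 at 6 h, and 15 of 17 log2 changes at 1 h were negative, beside 44.7% of all probe sets. These 17 probe sets stand for 9 genes, 4 of them for Mef2a alone, and the excitatory neuron markers had 11 of 11 negative at the same time. The part of those markers in it was not tested. Mef2a had -0.31 ± 0.13 at 1 h in its brightest probe set (adjusted p = 0.419 by limma), and -0.51 ± 0.18, -0.88 ± 0.54 and -1.08 ± 0.65 in the others. At 6 h its brightest probe set had 0.0061 ± 0.1285 (adjusted p = 0.997 by limma), and the others -0.32 ± 0.18, -0.45 ± 0.54 and -0.39 ± 0.65. Mef2d had 0.13 ± 0.14 at 1 h and 0.27 ± 0.14 at 6 h in its brighter probe set (adjusted p = 0.715 and 0.987 by limma), and -0.32 ± 0.32 and 0.052 ± 0.316 in the other. Kinases that phosphorylate class IIa enzymes had 16 tested probe sets with a median of -0.029 at 1 h and -0.0042 at 6 h. Among them Mark2 had -0.38 ± 0.17 at 1 h (adjusted p = 0.445 by limma), and Prkd3 had 0.19 ± 0.12 in its brightest probe set (adjusted p = 0.553) and 0.048 ± 0.160 and -0.17 ± 0.17 in the others.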

How the data were processed

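The deposited table holds linear signal intensity for 31099 probe sets on 9 arrays. What software made it is not given in the sources used here. With 2% of probe sets trimmed at each end the mean was 150.05 on all arrays, so each had been scaled to a common trimmed mean. The number of arrays limits the precision.

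Signals were taken as log2(signal + 16) and quantile-normalized, since array medians spanned 0.206. The 57 control probe sets and those with a mean under the 40th percentile were left out. All comparisons used a single model of the 9 arrays in limma 3.58.1 (R 4.3.3), with an intensity trend, 6 residual degrees of freedom and a threshold of 0.05, 2-sided. The fit was tested on simulated data for 1 h against control, over 5 runs. There it called 64 of 335 probe sets given a log2 effect of 0.5 (19.1%). It called 244 of 335 given an effect of 1 and 320 of 330 given an effect of 2. Most effects of 0.5 were thus missed. On the real arrays only 6 of 18625 probe sets passed at 1 h. With so few calls the Benjamini-Hochberg cut is stricter than in the simulated data, which held many effects. The simulated shares are therefore not the share of such effects that would be called among the deacetylases.

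Gene names came from the platform annotation. For 8 of the 9 measured genes the Entrez number was in the RefSeq rat gene table, and Hdac6 kept the annotation's symbol. The members and lists were chosen with earlier results of these data known. Named beside the members were, per related list, those that passed or else the 2 with the smallest p at 1 h or 6 h, by their probe set of highest mean. Figures were drawn with matplotlib 3.10.9.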

Additional observations from a re-analysis of the deposited data

How the results depend on the processing

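By limma, 0 deacetylase probe sets passed in each comparison under all 21 alternatives and in the F test under the 20 that allow it, the fit of the compared groups alone being the exception: the replicate block, the beta-actin ratio as covariate, array weights, eBayes without trend, a pseudocount of 1 or 64, all probe sets or a 60th percentile filter, median centring, the values as deposited, a fit of the compared groups alone, the brightest probe set of each gene, and each array left out. The lowest adjusted p of any member was 0.32 at 1 h, 0.635 at 6 h and 0.58 between the times. The replicate block changed no deacetylase call. It leaves log2 changes as they were, since each group holds each replicate number once. Hdac1 probe set 1 thus stayed at 0.33 at 1 h, with an adjusted p of 0.446 by limma. The groups share replicate numbers in the labels, but deviations of same-numbered arrays from their group means correlated at -0.36 to 0.54 and 4 of 9 arrays correlated best with their own number, so the numbers were not taken as pairs. The block gave 2 calls over all probe sets at 1 h and 1 at 6 h. The median log2 change ran from -0.029 to 0.14 at 1 h and from -0.057 to 0.087 at 6 h. Signs were not stable: 70 of 621 log2 changes of single probe sets had the other sign, as did 5 of 42 medians. The cause was not tested. The 621 include values that could not turn. Another filter, the fit without trend, the replicate block and the fit of the compared groups alone leave a log2 change as it was. Not all values that turned were near 0. Hdac1 probe set 2 between the times had -0.21 in the main fit and 0.11 without 6 h replicate 1. As deposited, Hdac2 had 0.0038 at 1 h and 0.023 at 6 h, Hdac8 -0.036 at 1 h, and Hdac7 -0.075 at 1 h and -0.0011 at 6 h. With median centring, Hdac2 had 0.11 at 1 h, 0.10 at 6 h and -0.0072 between the times, and Hdac3 0.068 at 1 h and 0.019 at 6 h. With array weights, the values at 1 h were 3.8e-04 (Hdac2), 0.0040 (Hdac3), -0.025 (Hdac7) and -0.13 (Hdac6), those at 6 h 0.16 (Hdac1 probe set 2), -0.047 (Hdac8), -0.26 (Hdac5 probe set 1), -0.0038 (Hdac6) and -0.12 (Hdac11), and those between the times -0.12 (Hdac2) and -0.064 (Hdac8). With the covariate, the values at 1 h were 0.094 (Hdac3), -0.031 (Hdac8), -0.035 (Hdac7) and -0.20 (Hdac6), and those at 6 h -0.067 and 0.20 (Hdac1 probe sets 1 and 2), 0.066 (Hdac3), -0.025 (Hdac8), -0.16 (Hdac5 probe set 1), -0.13 (Hdac6) and -0.038 (Hdac11). Leaving out 1 array at a time gave these ranges at 1 h: Hdac2 -0.12 to 0.031, Hdac3 -0.13 to 0.062, Hdac8 -0.0076 to 0.12, Hdac4 -0.30 to 0.087, Hdac7 -0.051 to 0.094 and Hdac6 -0.055 to 0.32. At 6 h they were -0.090 to 0.28 and -0.24 to 0.26 (Hdac1 probe sets 1 and 2), -0.12 to 0.094 (Hdac2), -0.16 to 0.060 (Hdac3), -0.046 to 0.12 (Hdac8), -0.26 to 0.20 (Hdac5 probe set 1), -0.0078 to 0.14 (Hdac7), -0.065 to 0.38 (Hdac6) and -0.13 to 0.13 (Hdac11). Between the times they were -0.39 to 0.11 (Hdac1 probe set 2), -0.077 to 0.13 (Hdac2), -0.11 to 0.083 (Hdac3), -0.090 to 0.073 (Hdac8), -0.032 to 0.12 (Hdac7) and -0.17 to 0.28 (Hdac6).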
